A study of Mus musculus with 24 samples.

Results

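Germline genes, which act in the formation of eggs and sperm, are mostly switched off in the body's other tissues, but expression was not measured here. The methylation of their promoters and gene bodies is described here in mouse liver, brain and heart. The set held 38 genes named for their roles in the germline, of 24963 RefSeq genes in the annotation: 15 genes of the piRNA pathway and of nuage, 7 of the synaptonemal complex and chromosome axis, 3 of meiotic cohesin, 3 of meiotic recombination, 5 transcription factors of the germline, and 5 others that bind RNA, act on chromatin or mark germ cells. The rule for members used no measured value, but the members were chosen with earlier results of these data known. A promoter was every tile that touched the 1000 bp on either side of a RefSeq transcription start, and 35 of the 38 genes had such a tile in all 3 tissues, 210 tiles in all. Piwil1, Tex15 and Syce1 had none.

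Genomic DNA came from untreated mice of the inbred strain C57Bl/6J, of both genders and 24 weeks old, with 12 liver, 6 brain and 6 heart libraries and 1 mouse per library within a tissue. Enhanced reduced representation bisulphite sequencing (RRBS) reads the methylation of CpGs near the cut sites of a restriction enzyme, and the level of a tile of 100 bp is the share of its reads that were methylated. The 6 mouse numbers of brain and heart also occur in liver, so the tissues are not independent, and no column of levels could be matched to a mouse or a gender. A level is a mean over all cells and both alleles of a piece of tissue, so that a difference between tissues in cell types and one within cells cannot be told apart.

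Most CpG-dense promoters stay free of methylation in every tissue of the body, whether or not the gene is active. Germline genes are the textbook exception. Many carry a CpG-dense promoter that is erased in primordial germ cells, gains methylation in the early embryo after implantation, and keeps it in somatic cells. The E2F6, MGA and MAX proteins of a variant Polycomb complex, together with H3K9 methyltransferases, are known to hold these genes silent, and the enzyme DNMT3B is known to methylate them.

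Sequences at the start sites are given to show how many CpGs such a promoter can hold while methylated. Tiles are printed on the plus strand of GRCm38 (mm10), 5′ to 3′, with each CpG in capitals. The first tile, at the start of Ddx4 (chromosome 13, 112652301 to 112652400), held 18 CpGs and was methylated at 70.8% ± 3.99 in liver (SD, n = 12), 65.4% ± 4.78 in brain (n = 6) and 56.7% ± 9.76 in heart (n = 6).
Ddx4: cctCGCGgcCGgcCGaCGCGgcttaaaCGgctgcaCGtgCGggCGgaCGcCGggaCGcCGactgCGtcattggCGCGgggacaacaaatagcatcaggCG
The tile just before the start of Sycp1 (chromosome 3, 102936101 to 102936200), wholly outside the transcript, held 12 CpGs and was at 92.8% ± 2.09, 96.4% ± 1.18 and 93.3% ± 0.99 in liver, brain and heart.
Sycp1: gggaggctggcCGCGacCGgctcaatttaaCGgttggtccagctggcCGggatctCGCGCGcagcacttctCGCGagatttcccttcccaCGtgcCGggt
The tile at the start of Slc25a31 (chromosome 3, 40708801 to 40708900) held 13 CpGs, lay outside the transcript except for 30 bp of the 5′ UTR, and was at 92.5% ± 3.01, 93.2% ± 1.31 and 85.0% ± 5.14.
Slc25a31: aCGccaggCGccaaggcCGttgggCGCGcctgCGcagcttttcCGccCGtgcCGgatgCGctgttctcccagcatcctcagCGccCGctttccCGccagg
These 3 stand against a pair of germline genes whose tiles were equally dense in CpGs and carried almost no methylation. The tile of Tdrd5 (chromosome 1, 156303401 to 156303500), intronic to the longer transcript and upstream of the other start, held 20 CpGs and was at 5.68% ± 2.76 in liver, 1.53% ± 1.05 in brain and 1.63% ± 1.36 in heart.
Tdrd5: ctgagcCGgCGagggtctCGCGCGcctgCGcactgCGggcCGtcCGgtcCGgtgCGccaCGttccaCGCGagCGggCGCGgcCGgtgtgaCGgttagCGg
The tile over the start of Pld6 (chromosome 11, 59787601 to 59787700), with 35 bp of coding sequence and 22 bp of the UTR, held 12 CpGs and was at 1.09% ± 0.44, 2.20% ± 0.71 and 2.07% ± 1.19.
Pld6: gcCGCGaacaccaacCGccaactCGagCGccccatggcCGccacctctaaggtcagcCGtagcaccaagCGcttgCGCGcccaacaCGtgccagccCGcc

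Of the 35 germline promoters, 26 (74.3%) were methylated at 50% or more in each of the 3 tissues, against 2712 of 18364 promoters of all genes (14.8%). Below 10% in each tissue were 3 germline promoters (8.57%), those of Tdrd5, Dmrt1 and Pld6, against 56.6% of all promoters. The remaining 6 were Tdrkh, Stag3, Smc1b, Rec8, Syce2 and Nobox. The median germline promoter stood at 83.1% in liver, 85.0% in brain and 76.0% in heart, and the median over all promoters at 4.88%, 4.47% and 3.92%. A promoter level here is the plain mean of its tiles.

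**Figure D1:**
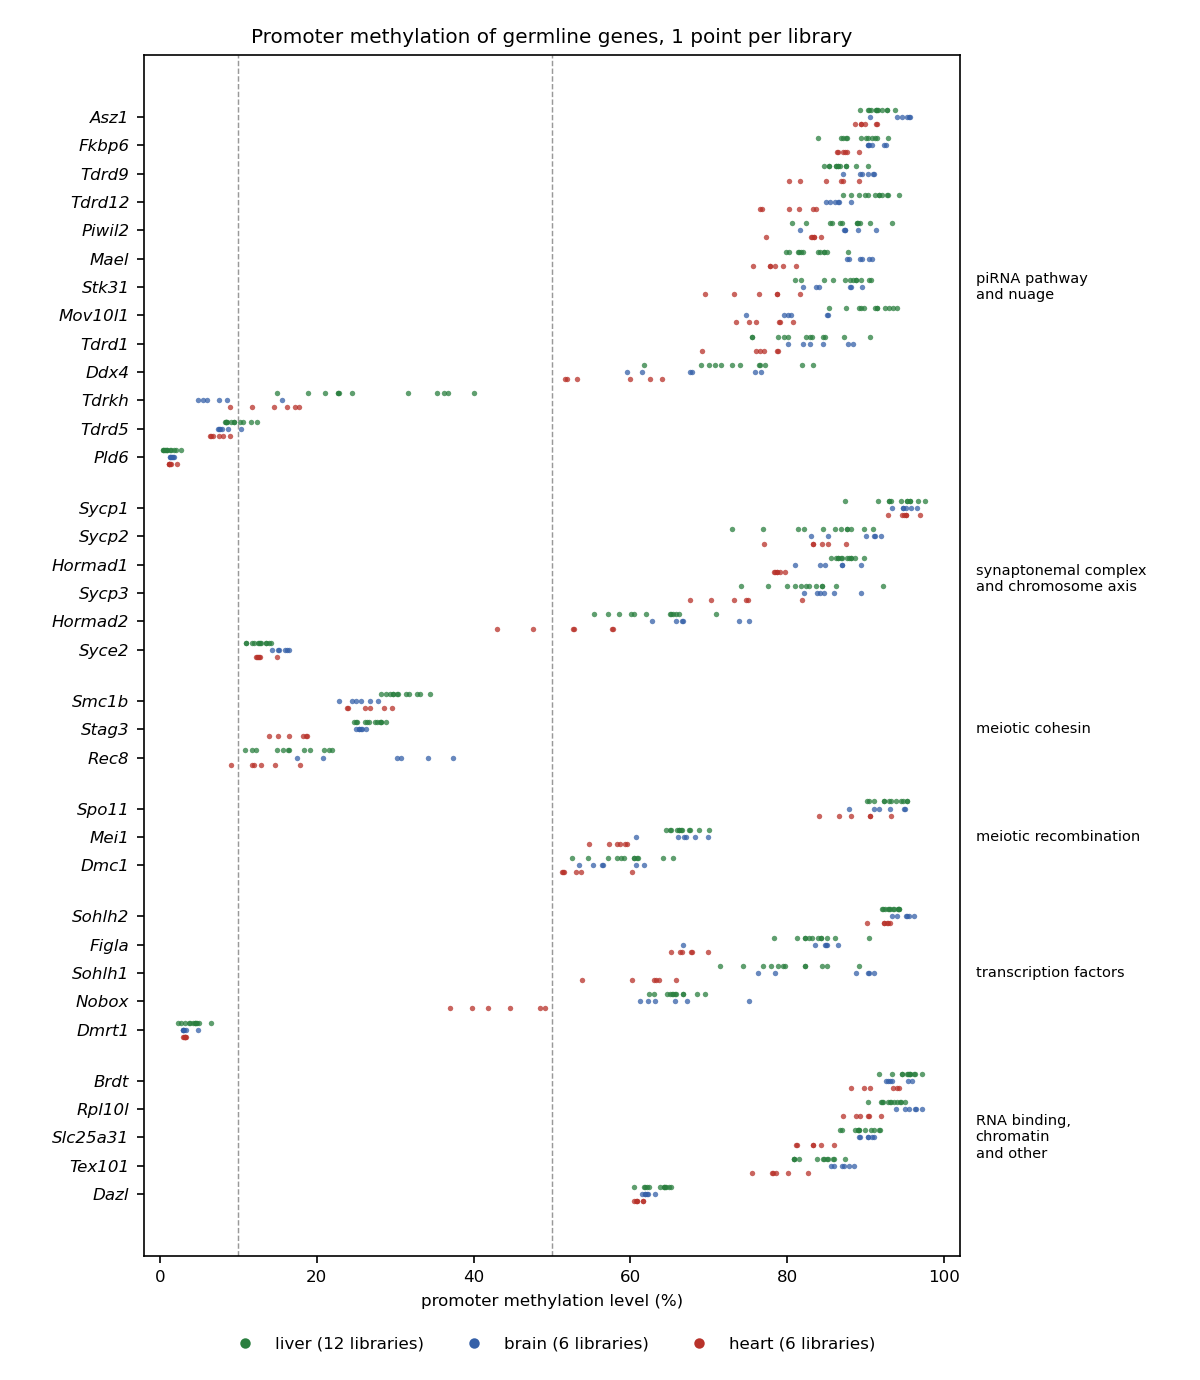
Promoter methylation level (%) of the 35 germline genes with a tile in all 3 tables, 1 point per library (12 liver, 6 brain, 6 heart), in groups by role and ordered by level. Dashed lines mark 10% and 50%. In 26 genes the mean of every tissue lies above 50%, while Pld6 and Dmrt1 lie below 10% in every library and Tdrd5 between 6.37% and 12.4%.

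The genes of the piRNA pathway, which makes the small RNAs that silence transposons in germ cells, had a median promoter level of 86.8%, 85.9% and 77.2% in liver, brain and heart over 13 measured genes. Methylated in all 3 tissues were 10 of them: Ddx4, Mael, Tdrd1, Tdrd9, Tdrd12, Piwil2, Asz1, Mov10l1, Fkbp6 and Stk31. Asz1, a scaffold of nuage, the granule near the nucleus where piRNAs are made, ranged from 89.3% to 93.7% over the liver libraries (median 91.4%), from 90.5% to 95.6% in brain (median 94.9%) and from 88.6% to 91.4% in heart (median 89.6%). Its 3 tissues overlapped. Ddx4, the germ cell RNA helicase VASA, was lower than the other methylated genes of this group: 61.7% to 83.3% in liver (median 73.4%), 59.6% to 76.7% in brain (median 67.7%) and 51.7% to 64.0% in heart (median 56.6%). Only its tile at -241 bp, the farthest upstream of the 5, exceeded 80% in every tissue, at 92.4%, 91.2% and 81.3%, and the 4 tiles over the start lay between 37.7% and 70.8%.

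Pld6 and Tdrd5 were the unmethylated members of this pathway. Pld6 encodes a protein of the outer mitochondrial membrane that is needed for piRNA production. Its level ran from 0.45% to 2.78% over the liver libraries (median 0.94%), from 1.27% to 1.80% in brain (median 1.53%) and from 1.12% to 2.23% in heart (median 1.28%). Its gene body was methylated, at 72.8%, 77.6% and 72.8%. Tdrd5, a Tudor domain protein of nuage, ranged from 8.38% to 12.4% in liver, 7.37% to 10.3% in brain and 6.37% to 9.02% in heart. Of its 10 tiles, 8 were below 10% in all 3 tissues and the others, upstream at -545 and -645 bp, held 1 and 3 CpGs and reached 44.2% and 24.8% in liver. Tdrkh, a Tudor protein on mitochondria that helps to trim piRNAs, rested on 1 common tile, in an intron 307 bp past the start (chromosome 3, 94413501 to 94413600).

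The synaptonemal complex joins homologous chromosomes in meiosis, and its genes were methylated with 1 exception among the 6 measured. Sycp1, which encodes the transverse filament, ranged from 87.4% to 97.6% in liver, 93.3% to 96.6% in brain and 92.8% to 96.9% in heart, with tissue means of 94.03%, 95.02% and 94.88%. It had the second highest CpG density of the methylated germline promoters, at 5.05 CpGs per 100 bp, after Dazl. That density covers the whole window, while the level rested on the 2 tiles shared by all tissues, where brain and heart had 7. Sycp2 and Sycp3 of the lateral element and Hormad1 of the chromosome axis lay between 73.8% and 88.7% in every tissue mean, and Hormad2 between 51.9% and 68.5%. Syce2, a protein of the central element, stood apart at 12.7% ± 1.07 in liver, 15.6% ± 0.83 in brain and 12.9% ± 1.004 in heart. From 40 to 493 bp past its start its tiles held 7 to 13 CpGs and were at 8.7% or less, and the intronic tile at 693 bp was at 64.7%, 64.2% and 54.2%.

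None of the 3 meiotic cohesin promoters was methylated by this rule. Stag3, Smc1b and Rec8 encode the subunits that hold sister chromatids together in meiosis, and their medians were 26.9%, 25.6% and 16.9%. Stag3 and Smc1b were split by the start site. In Stag3 the 8 common tiles upstream were at 12.7% or less, in the direction of the start of Gpc2, a neighbour on the other strand 572 bp away, while the intronic tiles at 442, 542 and 642 bp were at 87.4%, 87.7% and 89.3% in liver. In Smc1b, whose start lies 141 bp from that of Ribc2, the tile at the start was at 2.50%, 0.82% and 1.82%, and the tile 306 bp into the gene at 74.1%, 78.7% and 74.7%. Rec8 had 2 tiles, both within the 5′ UTR and the first intron, and ranged from 10.9% to 22.0% over the liver libraries (median 16.4%), from 17.5% to 37.4% in brain (median 30.5%) and from 9.05% to 17.9% in heart (median 12.5%). The spread was widest in brain, where 2 of 6 libraries fell within the liver range.

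The 3 germline promoters with the start of another gene within 1 kb were Stag3, Smc1b and Tdrkh, and none of them was methylated. Among all promoters with such a neighbour, 175 of 4014 (4.36%) were methylated.

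Spo11, which makes the double-strand breaks of meiosis, was methylated at 93.0% ± 1.78, 92.2% ± 2.68 and 88.8% ± 3.28 in liver, brain and heart. The recombinase Dmc1 and the meiotic gene Mei1 passed 50% by the window's mean but not at their starts. In Dmc1 the tile at 158 bp, with 9 CpGs, was at 21.0% ± 4.43, 19.3% ± 8.76 and 9.98% ± 3.67, and the upstream tiles at -942 and -1042 bp were at 86.7% or more. In Mei1 the tiles at 34 and 134 bp, with 9 and 10 CpGs, were at 15.7% and 24.2% in liver, 11.4% and 22.6% in brain, and 8.95% and 19.4% in heart. The level of Mei1 rested on tiles around its other start, downstream, 8 tiles of which were at 52.4% or more in every tissue.

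Of the transcription factors, Sohlh2, which acts in early germ cell differentiation, was methylated over the whole window, with 11 tiles at 85.8% or more in every tissue. Sohlh1 and Figla, the latter a regulator of zona pellucida genes in the oocyte, were methylated as well but lower in heart. Nobox, an oocyte homeobox gene, passed 50% in liver and brain and stood at 43.5% ± 4.84 in heart. Dmrt1, which is also made by the somatic Sertoli cells of the testis, was the unmethylated one, at 2.37% to 6.5% in liver (median 4.33%), 2.97% to 4.90% in brain (median 3.05%) and 2.97% to 3.37% in heart (median 3.21%). Its 7 tiles held 4 to 13 CpGs and none exceeded 11.4%. Its body was methylated, at 64.1%, 69.9% and 60.4% over 52 tiles.

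Brdt, the testis bromodomain protein, was at 95.1% ± 1.43, 93.9% ± 1.40 and 91.7% ± 2.55, and Rpl10l, a testis copy of a ribosomal protein gene, at 93.1% ± 1.33, 95.7% ± 1.18 and 89.6% ± 1.64. Slc25a31, a germ cell ADP/ATP carrier, and Tex101, a surface protein of germ cells, lay between 78.8% and 90.1%. Dazl, an RNA-binding protein of germ cells and the densest germline promoter with 6.997 CpGs per 100 bp, was at 63.3% ± 1.53, 62.1% ± 0.59 and 61.0% ± 0.47. That mean joined a methylated and an unmethylated stretch. From -631 to 269 bp around the start its tiles were at 84.9% or more in every tissue, including the tile at the start with 10 CpGs at 96.2% ± 1.90, 94.5% ± 1.90 and 94.3% ± 3.12. At 469 bp, within the first intron, the level was 39.6%, 33.2% and 31.2%, and from 569 to 869 bp, across 4 tiles of 8 to 16 CpGs, it was 5.88% or less. The same step was seen in all 3 tissues.

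**Figure D2:**
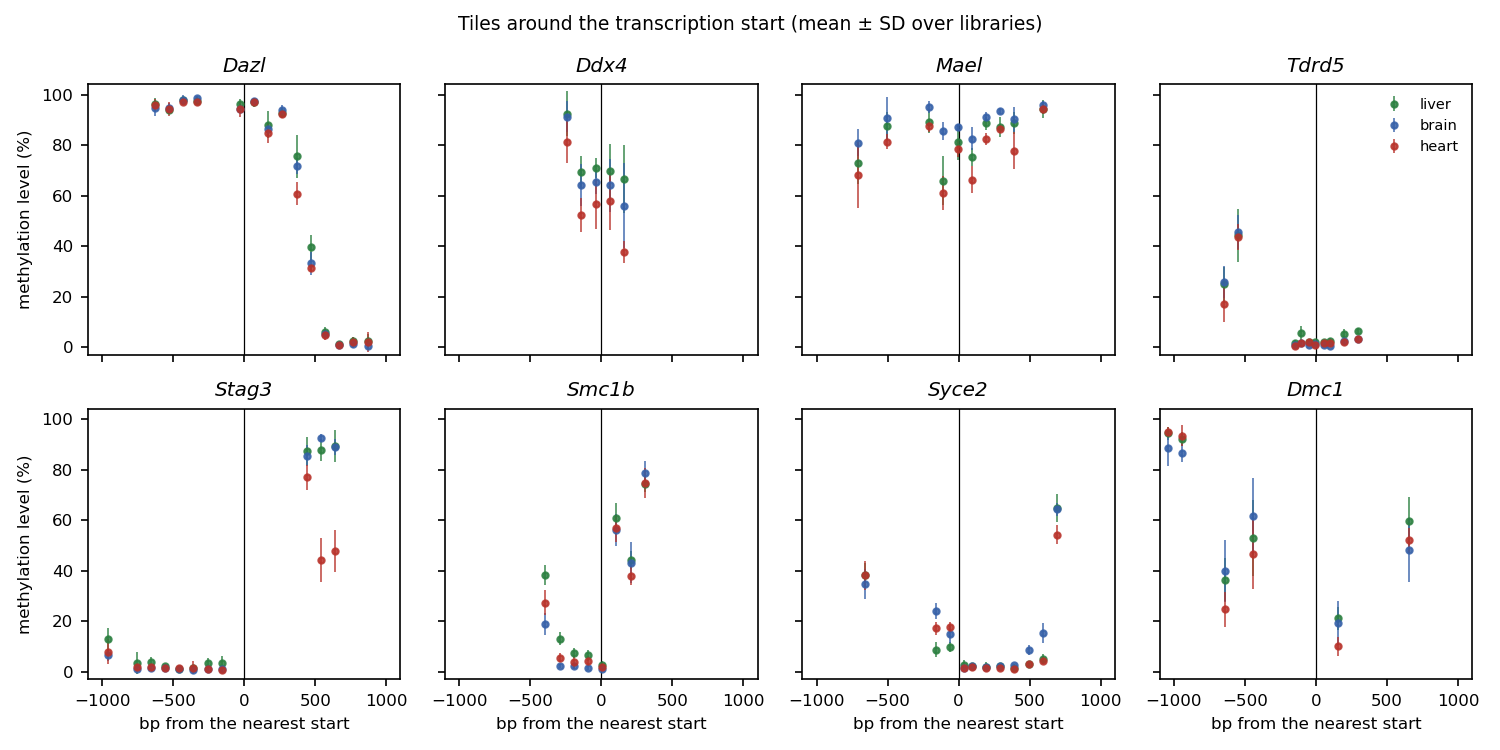
Methylation level (%) of each tile against the distance of its centre from the nearest transcription start (bp, upstream negative) for 8 germline genes, as the mean ± SD over 12 liver, 6 brain and 6 heart libraries. Dazl falls from above 84% to below 6% within the first 569 bp of the gene, Stag3 and Smc1b rise from near 0 at the start into the gene, and Tdrd5 is near 0 across its start.

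Methylation at the start itself was therefore read from the tiles whose centre lay within 250 bp of a start. Of the 31 germline genes with such a tile, 22 (71.0%) were at 50% or more in all 3 tissues, against 1115 of 15285 genes (7.29%). Below 10% in all 3 were 5 of them, Stag3 and Syce2 in addition to Tdrd5, Pld6 and Dmrt1, against 80.1% of all genes. Rec8, Smc1b, Dmc1 and Mei1 were the other 4. Brdt, Sohlh1, Figla and Tdrkh were measured only farther from a start. Across the window, in 6 classes of distance, the median over germline tiles ran from 74.0% (within 250 bp after a start) to 91.0% (250 to 500 bp before it) in liver, and from 61.3% (more than 500 bp before it) to 82.9% (250 to 500 bp before it) in heart. The medians over the tiles of all promoters were between 1.20% and 4.53% in liver.

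CpG density was then set against the level, since in the genome at large dense promoters are the unmethylated ones. Of all promoters with fewer than 1.5 CpGs per 100 bp of window, 62.7% were methylated in all 3 tissues; no germline promoter was that sparse. With 1.5 to 3 CpGs per 100 bp, 11 of 13 germline promoters (84.6%) and 24.96% of all promoters were methylated. With 3 or more, 15 of 22 germline promoters (68.2%) were methylated, against 105 of 11662 (0.9004%). The 105 include the 15 germline genes, which made up 14.3% of them: Brdt, Dazl, Ddx4, Dmc1, Sycp1, Sycp3, Rpl10l, Figla, Sycp2, Slc25a31, Sohlh2, Stk31, Mov10l1, Fkbp6 and Mael. Another 3, Stra8, Tex12 and Tex14, belong to a list of 20 other meiosis genes, and 87 to no list of germline genes used here. At the start itself, 12 of 19 germline genes of this density were methylated and 55 of 10998 of all genes (0.5001%). Of the 15, Brdt and Figla had no tile within 250 bp of a start. In Dmc1 the 1 tile there was at 21.0%, 19.3% and 9.98% in liver, brain and heart.

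**Figure D3:**
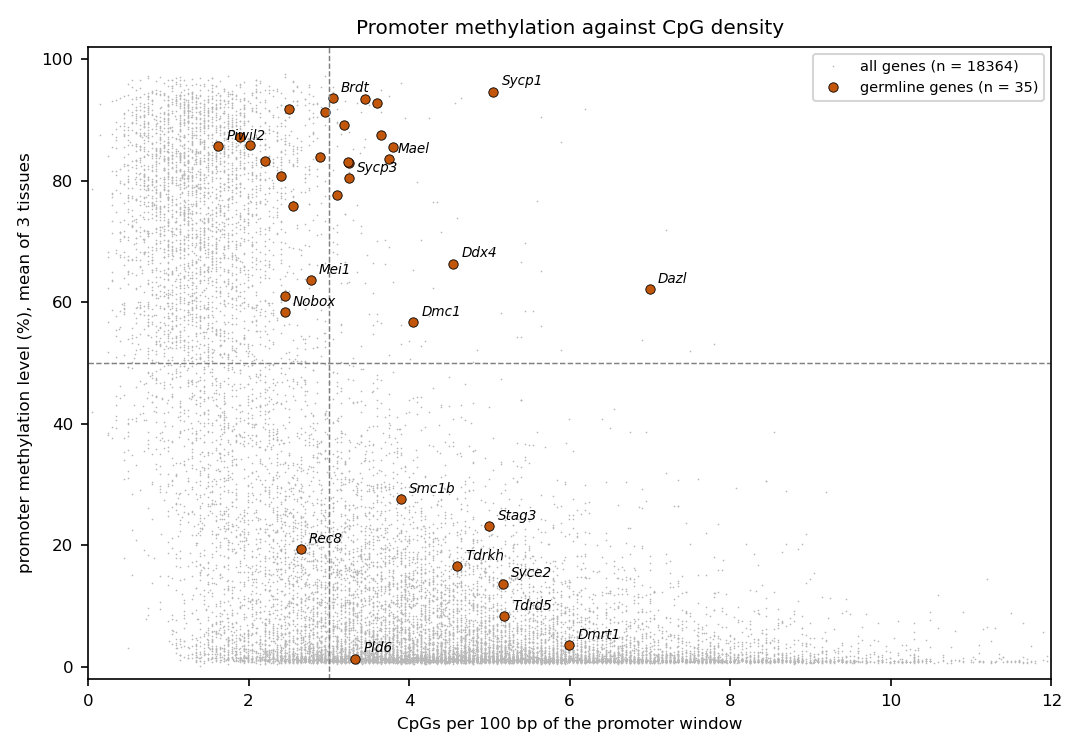
Promoter methylation level (%, mean of the 3 tissue means) against CpGs per 100 bp of the promoter window for 18364 genes (grey) and the 35 germline genes (orange). Dashed lines mark 50% and 3 CpGs per 100 bp. The upper right area is sparsely filled, and 15 of the 105 promoters at 50% or more in every tissue there are germline genes.

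The same held tile by tile. Of the germline promoter tiles with 1 or 2 CpGs, 34 of 41 (82.9%) were at 50% or more in all 3 tissues, against 30.3% of the promoter tiles of all genes. With 3 to 6 CpGs the shares were 65 of 88 (73.9%) and 12.4%. With 7 or more they were 41 of 81 (50.6%) and 483 of 56405 (0.856%), and with 10 or more 17 of 40 (42.5%) and 75 of 34559 (0.217%). The 41 dense tiles lay in 21 genes, with 4 in Dazl and Mael, 3 in Ddx4, Fkbp6, Rpl10l, Sohlh2 and Sycp2, and 1 or 2 in the others, among them Smc1b. In both sets the share fell as the CpG number rose. Tiles of 1 gene are neighbours and share their source, so these shares were not tested.

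**Figure D4:**
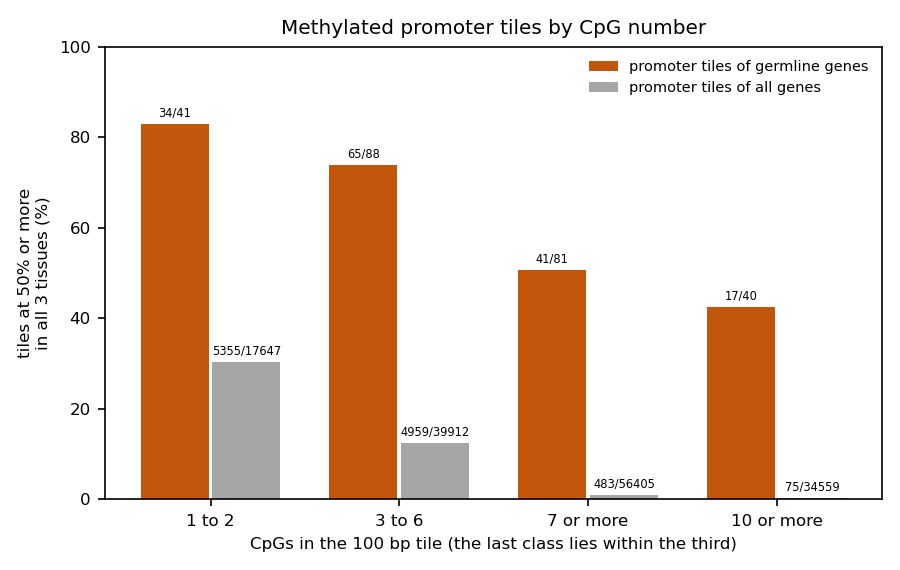
Share (%) of promoter tiles at 50% or more in all 3 tissues, by the number of CpGs in the tile, for germline genes (orange) and all genes (grey). The numbers over the bars give the tiles at 50% or more of all tiles in the class, and the bars of germline genes fall from 82.9% to 42.5% where those of all genes fall from 30.3% to 0.217%.

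Sites for the factors named above were looked for in the RefSeq promoter sequences (GRCm38.p6, 250 bases before to 50 after the start), which held 34 of the 38 genes and 32 of the 35 measured. The letters searched on both strands were TCCCGC, the core of the E2F6 site, whose reverse complement is GCGGGA, and CACGTG, the E-box that MAX and MGA bind, which reads the same on both strands and does not overlap the first. CACGTG stood in 16 of 32 germline promoters (50%) and in 10.6% of 13928 promoters of all genes, TCCCGC in 13 (40.6%) and 35.4%, and both in 8 (25%) and 4.46%. The 8 with both were Ddx4, Sycp1, Sycp3, Stag3, Hormad1, Syce2, Slc25a31 and Mael. Among promoters with 3 or more CpGs per 100 bp, CACGTG stood in 12 of 21 germline (57.1%) and 12.1% of all. Within the germline set it was found in 13 of 24 methylated promoters (54.2%) and in 3 of 8 that were not methylated (37.5%), namely Pld6, Stag3 and Syce2. TCCCGC went the other way, in 8 of 24 (33.3%) and 5 of 8 (62.5%), and both stood together in 25% of either. A match of letters is a description of the sequence and not a bound site.

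A stretch before the start is printed for 2 of the 8, both methylated, on the strand of the gene with the motifs in capitals. That of Mael (chromosome 1, 166238867 to 166238982, minus strand) runs from 238 to 123 bases before the start, lies outside the transcript and overlaps tiles at 65.8% and 89.3% in liver.
Mael: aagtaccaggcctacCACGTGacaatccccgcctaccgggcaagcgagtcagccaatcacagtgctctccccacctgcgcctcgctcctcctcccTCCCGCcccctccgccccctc
The stretch of Hormad1 (chromosome 3, 95559567 to 95559676, plus strand) covers the 110 bases before the start, where the tiles were at 92.8% and 85.4% in liver.
Hormad1: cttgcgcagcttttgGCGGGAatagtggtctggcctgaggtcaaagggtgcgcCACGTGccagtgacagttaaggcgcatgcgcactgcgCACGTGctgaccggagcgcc

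Gene bodies, the tiles of the transcript outside every promoter window, were methylated in germline genes and in genes at large. Of the 30 germline genes with such a tile, 29 (96.7%) were at 50% or more in all 3 tissues, against 83.7% of 18295 genes. The germline medians were 82.9%, 82.8% and 75.4% in liver, brain and heart, and those of all genes 79.7%, 78.5% and 73.1%. The 3 genes without a promoter tile were methylated here, with Piwil1, a PIWI protein that binds piRNAs in spermatids, at 69.1%, 63.2% and 60.2%, Tex15 at 90.04%, 88.6% and 83.7%, and Syce1 at 90.9%, 84.9% and 81.7%. Tdrkh, with 2 tiles, was the exception.

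Which germline genes differed between tissues was asked with limma over all promoters, all bodies and all tiles. A call needed 25 points of difference or more and a Benjamini-Hochberg adjusted p of 0.01 or less. The study set the same numbers for differences between genders, on q-values from the program methylKit. No germline promoter was called in any of the 3 comparisons, where the shares of all promoters called were 3.41% for liver against brain, 3.49% for liver against heart and 2.37% for brain against heart. A looser limit of 10 points called 2, 10 and 7 of the 35, against 11.2%, 12.5% and 11.3% of all promoters. A promoter below 10% in every tissue cannot differ by 10 points, so promoters with a mean of 50% or more were also counted alone. Of these, 0, 8 and 6 of 27 germline promoters were called at 10 points, which is 0%, 29.6% and 22.2%, against 28.8%, 39.8% and 36.3% of all such promoters. At 25 points 0 of the 27 were called in each comparison, against 10.8%, 11.9% and 7.72% of all such promoters.

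The 10-point calls against heart all had the lower level in heart. For liver they were Ddx4, Nobox, Sohlh1, Figla, Stag3, Tdrd12, Tdrkh, Hormad2, Stk31 and Mov10l1, and for brain Nobox, Sycp3, Sohlh1, Figla, Rec8, Hormad2 and Mael. Of all promoters called at 10 points, 1712 of 2298 from liver and 1729 of 2066 from brain were lower in heart. Heart was also lower genome-wide, with a mean over all tiles of 59.8% ± 0.26 against 65.3% ± 0.33 in liver and 65.2% ± 0.92 in brain. Among promoters with a mean of 50% or more, the median difference between liver and heart was 5.89 points over the 27 germline genes and 6.04 over all 3382, and between brain and heart 6.06 and 5.74. Liver was above heart in 26 of the 27 (96.3%) and in 2762 of the 3382 (81.7%), brain in 27 of 27 and in 2641 (78.1%), and the part of the genome-wide shift in them was not tested. Both comparisons share the heart libraries. Between liver and heart, Stag3, Tdrd12, Hormad2 and Stk31 lay just past the limit, at 10.03, 10.6, 10.7 and 10.7 points. Stag3 fell to as low as 9.45 without 1 of 9 libraries (liver 1, 2, 7, 8, 9 or 10, heart 1, 3 or 5), Tdrd12 to 9.80 without heart library 1 or 4, Hormad2 to 8.91 without liver library 6 or heart library 1 or 4, and Stk31 to 9.36 without heart library 1. Other processing took Stag3 to 7.31 points with tiles weighted by CpGs and Tdrd12 to 4.23 with all tiles of each table.

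**Figure D5:**
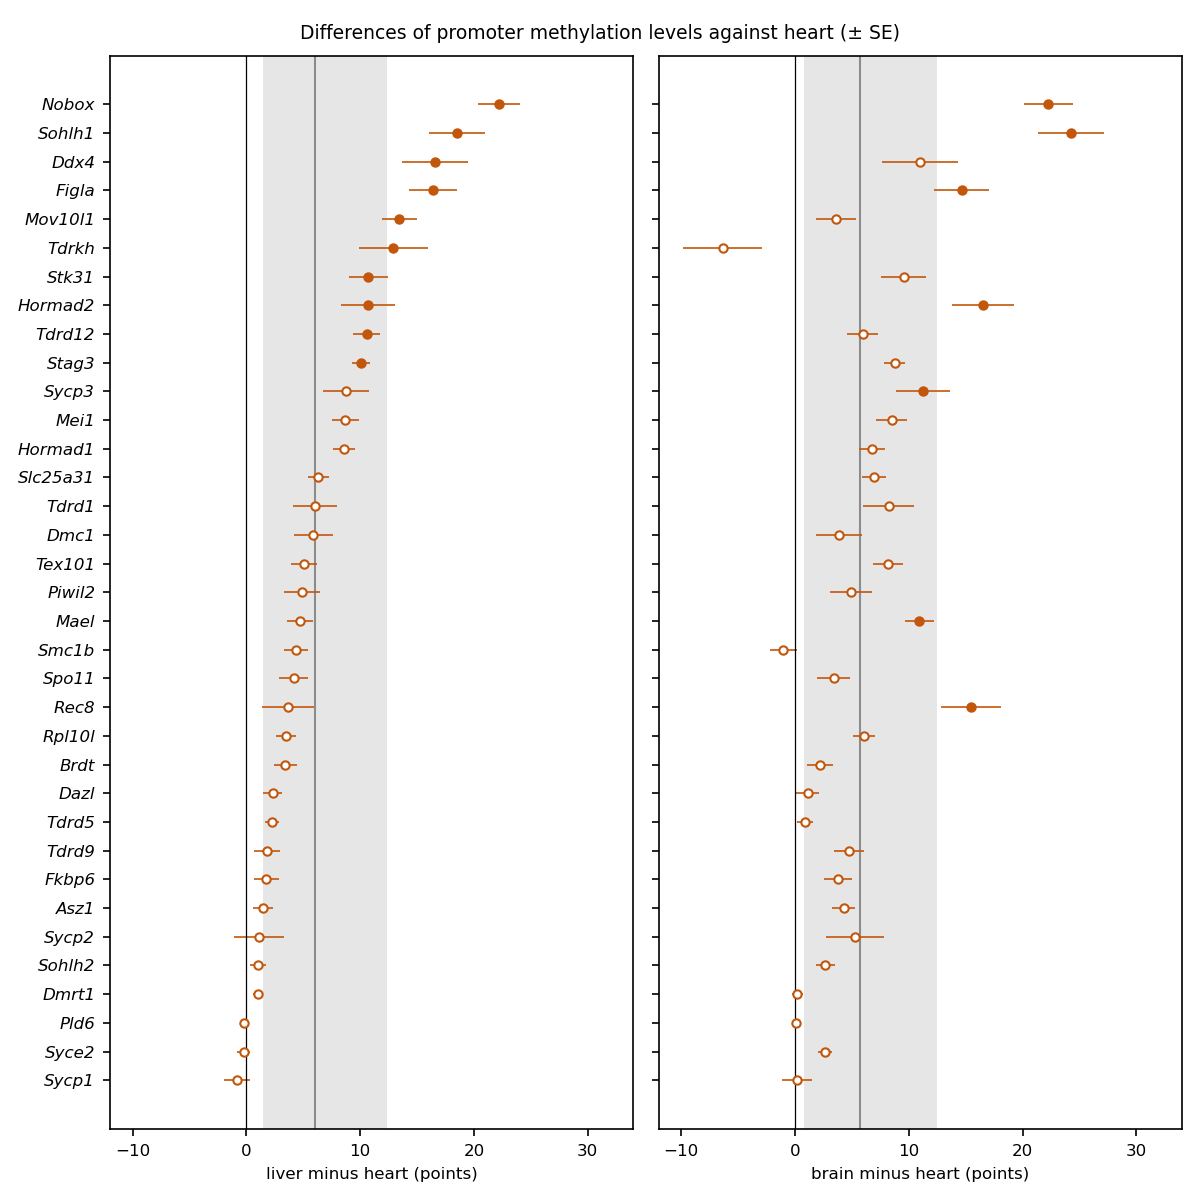
Difference in promoter methylation (percentage points, ± SE from limma) between liver and heart (left) and brain and heart (right) for the 35 germline genes, ordered by the left panel. Filled points passed the limit of 10 points at an adjusted p of 0.01 or less, and the grey line and band give the median and the middle 50% of all 3382 promoters with a mean of 50% or more; Nobox, Sohlh1 and Figla lie beyond the band in both panels.

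Nobox, Sohlh1 and Figla, transcription factors of the oocyte and of early germ cells, differed from heart by more than the middle 50% of those 3382 promoters in both comparisons. That middle 50% ended at 12.4 points for liver and 12.5 for brain, and the other 50% of promoters lie outside it by definition. How many of the 3382 lie beyond it in both comparisons was not counted. Nobox ranged from 62.3% to 69.5% in liver (median 65.5%), from 61.2% to 75.2% in brain (median 64.4%) and from 37.0% to 49.2% in heart (median 43.3%). Heart did not overlap with either tissue, and the differences were 22.2 ± 1.86 points (SE, adjusted p = 1.83e-10, limma) from liver and 22.3 ± 2.14 (adjusted p = 5.74e-09) from brain. The difference rested on 2 upstream tiles outside the transcript (chromosome 6, 43310201 to 43310400), where liver was at 74.2% and 71.7% and heart at 41.0% and 33.9%. At the intronic tile 103 bp past the start, brain was at 75.6% ± 11.7, above liver at 51.3% ± 6.76 and heart at 55.7% ± 11.3. Within 500 bp of the start Nobox therefore differed by -4.43 points between liver and heart (adjusted p = 0.49, limma), the other way.

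Sohlh1 ranged from 71.4% to 89.2% in liver, 76.3% to 91.0% in brain and 53.9% to 65.8% in heart, again with no overlap of heart. Its level rested on 2 common tiles, both upstream, at -403 and -603 bp. The differences were 18.5 ± 2.50 points (adjusted p = 7.48e-07, limma) and 24.2 ± 2.88 points (adjusted p = 1.88e-07), the latter close to the 25-point limit, which it passed, at up to 26.1, when brain library 1 or 4 or heart library 2 was left out. With all tiles of each table, which adds a pair of tiles absent from liver, they fell to 9.18 and 13.9 points, and the former was no longer called at 10 points. Figla ranged from 78.3% to 90.4% in liver, 66.7% to 86.4% in brain and 65.1% to 69.9% in heart. One brain library lay among the heart libraries at 66.7%, and the other 5 were at 83.6% or more. The differences from heart were 16.4 ± 2.09 points (adjusted p = 2.96e-07, limma) for liver and 14.7 ± 2.41 (adjusted p = 2.20e-05) for brain. In Figla they too sat upstream, at -940 and -1040 bp, while the tiles at -340 and -540 bp were at 90.1% or more in every tissue. Within 500 bp the differences were 1.28 points for liver (adjusted p = 0.40, limma) and -2.45 for brain (adjusted p = 0.18).

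Tdrkh and Rec8 were the promoters called at 10 points between liver and brain. Tdrkh ran from 15% to 40% in liver (median 23.7%), 4.90% to 15.6% in brain (median 6.80%) and 8.90% to 17.7% in heart (median 15.4%), and liver exceeded brain by 19.3 ± 3.02 points (adjusted p = 6.21e-06, limma). It rested on 1 tile, and with all tiles of each table the difference was 6.76 points (adjusted p = 0.10, limma) and the call was lost. The next tile, 407 bp past the start, was not in the liver table and stood at 33.1% in brain and 84.7% in heart, so that with every tile of each table the liver level was 22.2 points below that of heart. Rec8 was lower in liver by 11.8 ± 2.29 points (adjusted p = 0.000112, limma), and without brain library 6 by 9.98. Of the gene bodies, that of Tdrkh was called at 25 points, with 41.4% to 58.8% in liver, 60.3% to 82.0% in brain and 27.9% to 42.1% in heart. Brain was highest, by 25.03 ± 3.15 points over liver (adjusted p = 1.68e-07, limma) and 39.5 ± 3.64 over heart (adjusted p = 1.14e-09), and the former fell below 25, to as low as 23.8, when any of 9 libraries was left out: liver 4, 5, 6, 9 or 11, or brain 2, 4, 5 or 6.

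In all, 1, 0 and 1 of 30 germline bodies were called at 25 points between liver and brain, liver and heart, and brain and heart, against 3.45%, 3.73% and 2.01% of all bodies. At 10 points 2, 6 and 7 were called, against 18.7%, 27.6% and 21.4%. Smc1b was the other body besides Tdrkh that was called between liver and brain, at 80.4% and 91.5%. Those called against heart were lower in heart: Ddx4, Tdrd5, Stag3, Tdrkh, Sohlh2 and Fkbp6 from liver, and Sycp1, Tdrd5, Spo11, Stag3, Tdrkh, Mei1 and Fkbp6 from brain. Of all bodies called at 10 points, 4187 of 5046 from liver and 3449 of 3918 from brain were lower in heart. Without 1 library, Ddx4 (heart 1 or 3), Sohlh2 (liver 6 or 7, heart 2 or 6) and Spo11 (brain 2, 4 or 6, heart 1, 2 or 6) fell below 10 points, to as low as 8.98, 9.69 and 9.02. Tdrd5 was at 86.4%, 87.4% and 74.9% while its promoter stayed below 10%.

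Single tiles showed where within a promoter the tissues parted. At 25 points 0, 7 and 7 of the 210 germline promoter tiles were called between liver and brain, liver and heart, and brain and heart. The shares were 0%, 3.33% and 3.33%, against 9.8%, 10.8% and 9.47% of all 758685 tiles. At 10 points 14, 37 and 33 were called (6.67%, 17.6% and 15.7%), against 24.6%, 28.8% and 27.5%. All tiles include those outside promoters, and calls among the promoter tiles of all genes were not counted apart. Heart was lower in 60252 of 82025 of all tiles called at 25 points from liver and in 58515 of 71830 from brain. Every one of the germline tiles called at 25 points was lower in heart. The widest were inside Stag3 (chromosome 5, 138281001 to 138281200), intronic, 542 and 642 bp past the start. At 542 bp liver ranged from 78.1% to 94.1% (median 89.2%), brain from 90.7% to 94.4% (median 92.9%) and heart from 31.2% to 55.9% (median 45.0%) with no overlap of heart. It was lower there by 43.7 ± 2.73 points than liver (adjusted p = 6.97e-13, limma) and 48.5 ± 3.15 than brain (adjusted p = 7.89e-12). At 642 bp the differences were 41.6 and 41.2 points, while at 442 bp heart was at 76.8% against 87.4% and 85.5%.

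The other called tiles were those of Nobox and Figla given above, 2 in each, and 1 each in Ddx4, Sohlh1 and Mei1. In Figla the tiles at -1040 and -940 bp (chromosome 6, 86016101 to 86016300) were lower in heart by 31.0 and 32.1 points than in liver and by 30.9 and 32.7 than in brain. In Ddx4 the intronic tile at 159 bp, with 13 CpGs (chromosome 13, 112652101 to 112652200), ranged from 50% to 94.1% in liver, 39.6% to 81.9% in brain and 31.7% to 44.6% in heart, and liver was above heart by 28.8 ± 6.15 points (adjusted p = 0.000356, limma). It was the one CpG-dense tile among the calls, and brain overlapped both tissues. In Sohlh1 the tile at -403 bp and in Mei1 the tile at -625 bp from its downstream start were lower in heart than in brain by 26.7 and 27.2 points. The Nobox tile at -797 bp differed between brain and heart by 25.6 points, and by as little as 24.4 without brain library 1 or 5 or heart library 1 or 2.

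Libraries of a tissue resembled each other, with a correlation across tiles of 0.965 to 0.977 in liver, 0.942 to 0.976 in brain and 0.964 to 0.977 in heart, and no pair held identical values in more than 3.30% of tiles. Marker genes chosen for each tissue were read as a check of its label. The promoters of Fgb, Serpina1a and Apob were lower in liver than in both other tissues by the 25-point limit, of 4 liver markers measured, and those of Myl3 and Myl2 lower in heart than in both, of 5 heart markers. Another heart marker, Tnni3, was lower in heart than in brain, and Nppa was lowest in brain, at 80.7% in liver, 37.3% in brain and 73.3% in heart, a difference between brain and heart of -36.0 points (adjusted p = 9.57e-11, limma). None of the 8 brain marker promoters was called at 25 points in any comparison, at medians of 4.43%, 2.64% and 3.55% in liver, brain and heart. By that limit they gave no check of the brain label. The 2 that were methylated in all 3 tissues, Mag and Gfap, were lowest in brain. Mag stood at 88.8%, 64.3% and 75.5%, with liver 24.6 points above brain (adjusted p = 1.28e-08, limma), and Gfap at 76.2%, 68.1% and 72.1%.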

How the data were processed

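Methylation was measured by enhanced RRBS in 24 libraries, 12 of liver, 6 of brain and 6 of heart. The submitters' processing notes name Bismark, methylKit and the build mm10. The paper, however, states that Zymo Research mapped these libraries by proprietary methods, and names Bismark for data from another study. Per the study's methods, the authors kept tiles of 100 bp with more than 10 reads in every sample of a tissue. The values they deposited, 1 table per tissue, are the fraction of methylated reads per tile and library, without counts, so read depth is unknown and no interval could be set on a single level. The tables held 819713 liver, 942643 brain and 930358 heart tiles on 19 autosomes, of which 758685 were shared and 99.9% held a CpG in the reference. Columns of levels are only numbered and name no mouse, and each was assigned to its tissue only.

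From these, levels were written as percentages and averaged over the tiles shared by the 3 tables within 1000 bp of any curated start (RefSeq, GRCm38.p6), or over the rest of the transcript for bodies. CpGs were counted in the reference. A promoter was called methylated at 50% or more and unmethylated below 10% in all 3 tissues. Tissues were compared with limma 3.58.1 (R 4.3.3, variance trend) across all promoters, bodies or tiles in 1 fit over 24 libraries, with Benjamini-Hochberg adjustment, and the tests were checked on simulated data. Calls needed an adjusted p of 0.01 or less and 25 points, or 10 points as a second limit. P-values treat libraries as separate mice, while the 3 tissues share 6 mouse numbers, 2 of which carry opposite genders in liver and in the other tissues. Other calculations used Python 3.11.15 with pandas 2.3.3, numpy 2.4.6 and scipy 1.17.1. Genes named with values were all members, those called, and the genes of fixed lists that were called. The members, the lists of other germline genes, repressors and tissue markers, and the limits were chosen with earlier results of these data known. Genders were not compared. Alternatives were other windows, tiles, weights, transcripts, scales and limits, and leaving out each library.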

Additional observations from a re-analysis of the deposited data

Results flagged for a closer look

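Each gene's promoter and body levels in the 6 brain and the 6 heart libraries were searched for 1 library apart from the rest, where the gap to its nearest neighbour exceeds Dixon's 95% critical value for the range. Of 130 such groups, 13 (10%) were flagged, and chance flags about 1 in 20 groups. The 12 liver libraries were not searched.

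The lowest brain library of the Figla promoter, at 66.7%, lay furthest out, with the next at 83.5% and the highest at 86.4%. In brain the lowest library also stood apart for Asz1, at 90.5% with the others from 94.0%, and for the bodies of Tdrkh, at 60.3% with the others from 74.9%, of Stk31, at 86.6% with the others from 91.4%, and of Mei1, at 77.6% with the others from 82.4%. The highest brain library stood apart for Tdrkh, at 15.6% with the next at 8.60%, and for Dmrt1, at 4.90% with the next at 3.33%. For the promoters of Figla, Asz1 and Tdrkh the flagged library was brain library 1. It also had the lowest mean over all tiles in brain, at 63.7% with the others from 64.9% to 66.4%.

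In heart the lowest library stood apart for Tdrd1, at 69.1% with the others from 76.0%, for Piwil2, at 77.2% with the others from 83.0%, and for Sohlh2, at 90.2% with the others from 92.3%. The highest stood apart for Pld6, at 2.23% with the next at 1.40%, for Syce2, at 14.9% with the next at 12.8%, and for Dmc1, at 60.2% with the next at 53.7%. The flagged levels of Pld6 and Dmrt1 remained below 10%.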

How the results depend on the processing

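No paired analysis was possible because the columns of levels carry no mouse numbers. The number of methylated germline promoters stayed within 1.5 times its value under every alternative, from 18 at a level of 75% or more to 26. Windows of 500 bp, all tiles of each table and weighting by CpGs each took Dmc1 out of the class. Mei1 also left it with windows of 500 bp and with weighting by CpGs, and Hormad2 with all tiles of each table. Nobox entered it with windows of 500 bp. The number below 10% was 2 to 4, except 1 with a window of 2 kb, which left Dmrt1. The median heart level was 73.4% with tiles weighted by CpGs. At 25 points 1 promoter was called between liver and heart with that weighting (Nobox, 25.5 points), and 1 between brain and heart with a window of 500 bp (Sohlh1, 26.7 points) or with all tiles of each table (Tdrkh, -28.98 points, higher in heart). At a difference of 10 points, the counts were 2, 10 and 7 promoters, 2, 6 and 7 bodies, and 14, 37 and 33 tiles for liver against brain, liver against heart and brain against heart. The share of all CpG-dense promoter tiles at 50% or more was 2.40% with 5 or more CpGs as the limit and 0.709% within 500 bp. Turned in sign were the liver-heart difference of Nobox (-4.43 points) and the brain-heart difference of Figla (-2.45) with 500 bp, where the upstream tiles drop out, and the liver-heart difference of Tdrkh (-22.2) with all tiles, where a tile absent from liver enters. Another 10 promoter differences kept their sign but lost the 10-point call. With all tiles of each table these were liver-brain for Tdrkh (6.76 points), liver-heart for Sohlh1 (9.18) and Tdrd12 (4.23) and brain-heart for Sycp3 (8.77). The rest were between liver and heart: Figla (1.28) and Stag3 (9.87) within 500 bp, Tdrd12 within 2 kb (8.31), Stag3 with CpG weights (7.31), and Stag3 (8.35) and Tdrd12 (9.61) with predicted transcripts included.

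Leaving out each library in turn, an alternative chosen after seeing the data, gave 0 to 0, 0 to 0 and 0 to 1 promoters in the same order, 0 to 1, 0 to 0 and 1 to 1 bodies, and 0 to 1, 7 to 8 and 6 to 8 tiles at 25 points, with 26 to 26 methylated and 3 to 3 unmethylated promoters. The tile called between liver and brain was that of Nobox at 103 bp in 5 of the 24 fits and that of Mei1 at -825 bp in 2. Logit levels and a fit without variance trend called the same genes and tiles. Unknown depth limits what can be said of single tiles with few CpGs.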

Other observations

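Lists of other germline genes, chosen with earlier results known, gave further values. A further list joined genes of the piRNA pathway and other RNA regulators of germ cells. Of its 8 measured promoters, 5 were methylated in all 3 tissues (Nanos2, Nanos3, Rnf17, Piwil4 and Gtsf1), and Ddx25 was unmethylated. Of 16 other meiosis genes, 6 were methylated (Stra8, Msh4, Majin, Tex12, Terb2 and Tex14) and 4 unmethylated (Msh5, Prdm9, Hfm1 and Mei4). Genes of the haploid spermatid were methylated in 5 of 7 promoters and those of the oocyte in 5 of 6, with Zpbp and Ooep the unmethylated ones. Among 14 genes of the variant Polycomb complex and of H3K9 methylation, which are widely expressed, 12 promoters were unmethylated and none methylated, at medians of 1.38%, 1.25% and 1.39% in liver, brain and heart, and all 14 bodies were methylated.

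Tex12, a protein of the central element, had the lowest promoter level in liver, at 53.0% ± 6.56 (SD, n = 12), against 88.8% ± 5.18 in brain and 86.0% ± 2.03 in heart (n = 6 each). The difference from brain was -35.8 points (adjusted p = 1.10e-11, limma) and from heart -33.1 points (adjusted p = 6.40e-11), opposite in direction to the members' calls against heart. The protamine genes Prm2 and Prm3, which share their tiles, were at 82.2% in liver and brain and 57.0% in heart, a difference from liver of 25.2 points (adjusted p = 3.81e-09, limma). The body of Spata22, a meiotic recombination gene, was at 70.01%, 64.6% and 37.4%, on 1 tile and called from heart in both comparisons, and that of Cbx3 was the 1 repressor body called, lower in liver than in both other tissues. No other promoter or body of these germline and repressor lists passed 25 points in any comparison.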
